A study of Mus musculus with 12 samples.

Results

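The tissue kallikreins of the epidermis and their inhibitor Spink5 were followed across 12 mouse epidermal transcriptomes. The set was fixed by name as Klk5, Klk6, Klk7, Klk8, Klk9, Klk10, Klk11, Klk13, Klk14 and Spink5, and the rows of the count table carrying these symbols were taken. Of the 10 named genes 9 were listed among the 14533 genes of the table. Klk14 was not listed, and every listed gene exceeded 0.5 CPM (counts in proportion to the library total, with TMM factors applied in every value but this filter) in at least 6 of the 12 mice. Each of the 9 members had at least 29 counts in every library, so none passed that filter through 1 group alone.

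The scrapings came from the dorsal skin of 6 WT and 6 Pparg-/-epi mice on a C57BL/6 background, with 1 library per mouse. All 12 mice carried 2 floxed Pparg alleles, the WT mice without Cre and the Pparg-/-epi mice with 1 copy of a Cre transgene under the cytokeratin 14 promoter, so that deletion was directed to keratin 14-expressing cells and their descendants. The mice were untreated and 8 to 13 weeks old in both groups by the labels, with 3 male and 3 female WT mice and 2 male and 4 female Pparg-/-epi mice. Skin was frozen and scraped down to the vascular bed beneath the epidermis, so the samples also held superficial dermis and skin appendages.

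Kallikreins are secreted serine proteases that are made by the granular keratinocytes as inactive precursors and are cut into active enzymes at the cell surface and in the stratum corneum. Klk5 activates itself and other kallikreins, and together with Klk7 it cleaves corneodesmosin, desmoglein 1 and desmocollin 1, the adhesion proteins that hold corneocytes together until they are shed. Spink5 encodes LEKTI, a multidomain inhibitor of these proteases, whose loss in humans causes Netherton syndrome, with premature shedding, barrier failure and allergic inflammation. Klk5 can also cleave the receptor encoded by F2rl1, which links the cascade to inflammatory signalling.

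The kallikrein members lie side by side on the plus strand of chromosome 7 in the order Klk13, Klk11, Klk10, Klk9, Klk8, Klk7, Klk6 and Klk5, with Klk12 between Klk13 and Klk11. Per the table these listed kallikreins run from 43712567 to 43851181 of mm10, a span of 138615 bases, which is called the cluster here. Kallikreins that were not listed are not part of this span. The 250 bases before the annotated starts of Klk13, Klk9 and Klk6, the 3 members that were altered by genotype, and of Klk10, whose values are described beside them, are shown here to let the letters upstream of these genes be read beside their values. They are from RefSeq on GRCm38.p6, the patched form of mm10, and are on the plus strand. Klk6 has 2 annotated starts, and its counts span both. Capitals mark the run TTAAAA.
Klk13, chr7:43712317-43712566: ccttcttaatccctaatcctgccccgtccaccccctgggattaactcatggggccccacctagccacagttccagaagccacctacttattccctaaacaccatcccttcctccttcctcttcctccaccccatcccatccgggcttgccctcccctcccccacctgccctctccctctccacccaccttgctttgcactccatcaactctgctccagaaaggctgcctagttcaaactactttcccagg
Klk10, chr7:43780804-43781053: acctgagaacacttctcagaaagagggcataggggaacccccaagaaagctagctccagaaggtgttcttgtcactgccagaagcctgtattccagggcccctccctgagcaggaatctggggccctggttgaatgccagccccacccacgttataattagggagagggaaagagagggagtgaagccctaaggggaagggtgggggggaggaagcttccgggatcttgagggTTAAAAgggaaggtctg
Klk9, chr7:43791641-43791890: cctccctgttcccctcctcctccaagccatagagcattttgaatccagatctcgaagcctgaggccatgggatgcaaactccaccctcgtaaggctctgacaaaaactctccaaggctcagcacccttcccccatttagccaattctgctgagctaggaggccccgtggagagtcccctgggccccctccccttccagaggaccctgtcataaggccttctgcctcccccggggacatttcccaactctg
Klk6 first start, chr7:43824294-43824543: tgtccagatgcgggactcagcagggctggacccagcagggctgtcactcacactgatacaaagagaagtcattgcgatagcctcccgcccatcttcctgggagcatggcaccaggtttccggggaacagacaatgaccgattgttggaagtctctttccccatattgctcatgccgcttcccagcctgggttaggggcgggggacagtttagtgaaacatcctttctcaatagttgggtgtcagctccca
Klk6 second start, chr7:43825200-43825449: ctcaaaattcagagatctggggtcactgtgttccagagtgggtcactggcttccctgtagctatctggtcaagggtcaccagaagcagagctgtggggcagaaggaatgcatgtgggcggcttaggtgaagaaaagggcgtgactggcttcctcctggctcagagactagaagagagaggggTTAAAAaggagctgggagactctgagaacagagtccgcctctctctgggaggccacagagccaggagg
Among the 11 starts of listed kallikreins in RefSeq, 4 held TTAAAA on either strand within these 250 bases, at Klk11, Klk10, Klk8 and the second start of Klk6, and 17.7% of 32851 promoters did. The run was 17 bases before the start in Klk10, 26 in Klk8, 68 in Klk6 and 233 in Klk11, and it was chosen after the sequences had been read. The PPAR-RXR direct repeat AGGTCANAGGTCA was in 0 of the 11 windows and in 0.0335% of all promoters, and its repeated unit AGGTCA, which the repeat contains, was in 0 of 11 and in 14% of all. The AP-1 site TGANTCA was in 0 of 11 and in 6.75%, and the TATA box TATAAA in 0 of 11 and in 12.4%. Both strands were searched, and no match says only that these letters are not in the window.

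Total counts ranged from 10120840 to 16947632 in WT and from 11272135 to 18851255 in Pparg-/-epi libraries, and 1 count was worth 0.0520 to 0.107 CPM. Pparg itself had 0.533 to 14.3 CPM in WT and 1.33 to 6.49 CPM in Pparg-/-epi mice (log2 fold change -0.10, SE (standard error) 0.71, adjusted p = 0.949), and its counts, summed over the whole gene, did not tell the groups apart. WT replicate 2 stood apart from the other WT mice: its summed keratinocyte markers were the lowest of all libraries at 14268 CPM, against up to 40034 in WT mice, and its hair follicle markers were the highest of the WT mice at 829.9 CPM, where the lowest WT library had 7.29. It was also the highest of all libraries in sebaceous gland markers (919 CPM) and leukocyte markers (238 CPM) and the highest WT library in endothelial markers (91.4 CPM). Keratinocyte markers were abundant in every library, with sums of 14268 to 40034 CPM in WT and 25980 to 48229 CPM in Pparg-/-epi mice. Of the 5, 1 was altered, Krt14, with a log2 fold change of 0.98. The others were at 1.02 for Krt1, 0.14 for Krt5, -0.02 for Krt10 and -0.06 for Lor. All 5 listed sebaceous gland markers of 6 were lower in Pparg-/-epi mice, with summed levels of 18.1 to 919 CPM in WT and 2.08 to 4.88 CPM in Pparg-/-epi mice, and Awat1 was at 0 in some of the latter. The hair follicle markers, 0 of 7 altered, summed to 81.6 to 2205 CPM in Pparg-/-epi mice, and Krt25 was at 0 in a WT library. Endothelial markers summed to 3.65 to 91.4 CPM in WT against 20.4 to 144 in Pparg-/-epi mice, with 1 of 4 altered, and melanocyte markers to 3.52 to 38.0 and 10.5 to 166, with 0 of 4 altered. Fibroblast markers summed to 1014 to 34533 and 5324 to 11169 CPM with 0 of 6 altered, leukocyte markers to 125 to 238 and 155 to 187 CPM with 1 of 5 altered, and muscle markers to 4.37 to 8619.5 and 2.08 to 324 CPM with 0 of 4 altered. The part of these cell types in the results was not tested.

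Genotype was compared with the quasi-likelihood test of edgeR, with Benjamini-Hochberg adjustment over all 14533 genes, and a gene was called altered at a log2 fold change of at least 0.6 in size and an adjusted p under 0.05. Of the 9 members 3 were altered, Klk6, Klk9 and Klk13, and each was higher in Pparg-/-epi mice. No member was altered in the other direction. Over all genes 10.3% were altered, 5.19% higher and 5.08% lower. The median log2 fold change was 0.58 over the 9 members and -0.01 over all genes, and 8 of the 9 members had a positive value. In Klk6 and Klk13 the 2 groups did not overlap, which held for 7.90% of all genes. Fewer cells of a type and less RNA per cell cannot be told apart in these bulk samples.

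**Figure D1:**
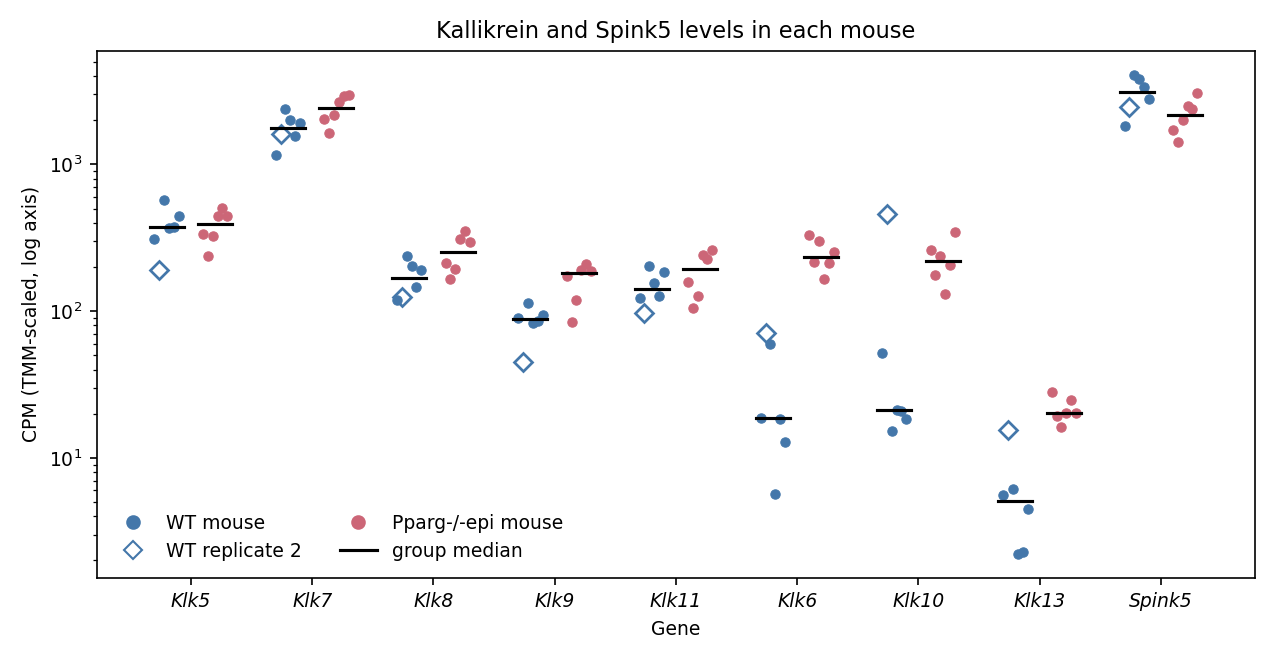
Level of each member in each mouse, in CPM on a log axis. Points are mice, black bars group medians, and open diamonds WT replicate 2. All 6 Pparg-/-epi mice lie above all 6 WT mice in Klk6 and Klk13, and WT replicate 2 is the highest of the 12 in Klk10, at 456 CPM.

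Klk6, a trypsin-like kallikrein also known from the nervous system as neurosin, had the largest change of the 9 members with all 12 mice. Its level was 5.71 CPM in the lowest WT mouse, 18.6 at the median and 71.4 in the highest, and 165, 235 and 329 CPM in Pparg-/-epi mice. Every Pparg-/-epi mouse was above every WT mouse, and the highest WT values were those of WT replicates 2 and 3, at 71.4 and 59.3 CPM. The means were 31.1 ± 27.3 and 246 ± 60.4 CPM (SD, n = 6 each), and the log2 fold change was 2.99 (SE 0.53, adjusted p = 0.00291 by edgeR), a 7.93-fold rise. WT mice spread more widely than Pparg-/-epi mice on the relative scale, with 12.5 times between the highest and lowest WT mouse and 2.00 times between the highest and lowest Pparg-/-epi mouse.

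Klk13, a kallikrein of stratified epithelia, was the least abundant member. Its level was 2.22, 5.05 and 15.4 CPM in the lowest, median and highest WT mouse and 16.4, 20.2 and 28.1 CPM in Pparg-/-epi mice. The groups did not overlap, and the gap was narrow because of WT replicate 2, since the next highest WT mouse had 6.18 CPM. The log2 fold change was 1.83 (SE 0.41, adjusted p = 0.0103 by edgeR), with means of 6.03 ± 4.87 and 21.5 ± 4.22 CPM (SD, n = 6 each). Libraries held 29 to 290 Klk13 counts in WT against 236 to 541 in Pparg-/-epi mice.

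Klk9, a chymotrypsin-like member, showed a smaller rise. Its level was 45.003, 87.9 and 113 CPM in the lowest, median and highest WT mouse and 84.6, 182 and 209.8 CPM in Pparg-/-epi mice. Of the 6 Pparg-/-epi mice 5 were above every WT mouse, and Pparg-/-epi replicate 8 lay within the WT range. The log2 fold change was 0.92 (SE 0.24, adjusted p = 0.0208 by edgeR), with means of 85.1 ± 22.4 and 161 ± 48.5 CPM (SD, n = 6 each).

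Klk10, first described as a gene of normal epithelial cells, gave the widest spread. Its level was 15.2, 21.1 and 456 CPM in the lowest, median and highest WT mouse and 131, 220.3 and 348 CPM in Pparg-/-epi mice. WT replicate 2 alone was above all Pparg-/-epi mice, while the other 5 WT mice, at 15.2 to 51.7 CPM, were below all of them. With all mice the log2 fold change was 1.21 (SE 0.81, adjusted p = 0.349 by edgeR, 95% interval -0.53 to 2.96). Without WT replicate 2 it was 3.13 (SE 0.35, adjusted p = 1.36e-04 by edgeR) and Klk10 was called altered, so that 4 of 9 members were higher, where 8.97% of all genes were. The log2 fold changes of Klk6 and Klk13 were then 3.42 and 2.36.

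**Figure D2:**
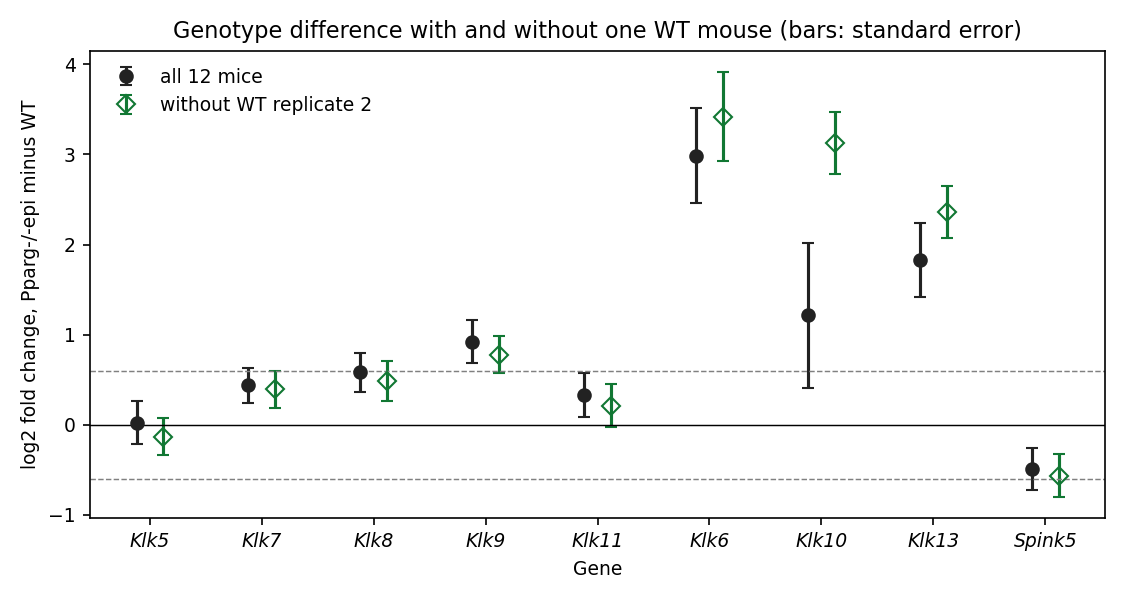
Log2 fold change of each member between Pparg-/-epi and WT mice, with bars of 1 standard error, for all 12 mice and without WT replicate 2. Dashed lines mark the threshold of 0.6 in either direction. Klk10 moves from 1.21 to 3.13 when WT replicate 2 is left out, and every other member moves by less.

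The kallikreins best known for shedding did not pass the test. Klk5, the enzyme that starts the cascade, was at 189.9, 373 and 569.6 CPM in the lowest, median and highest WT mouse and at 239, 390.0 and 508 CPM in Pparg-/-epi mice. The range of the Pparg-/-epi mice fell inside that of the WT mice, and the log2 fold change was 0.02 (SE 0.24, adjusted p = 0.966 by edgeR, 95% interval -0.50 to 0.54). Klk7, the chymotrypsin-like enzyme of the stratum corneum, was at 1157, 1761 and 2381 CPM in WT and at 1642, 2404 and 2990.2 CPM in Pparg-/-epi mice. Of the 6 Pparg-/-epi mice 3 were above every WT mouse, and the log2 fold change was 0.44 (SE 0.20, adjusted p = 0.157 by edgeR, 95% interval 0.01 to 0.86).

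Klk8, which in skin takes part in shedding and wound healing, was at 119, 168 and 237 CPM in the lowest, median and highest WT mouse and at 166, 254 and 349.6 CPM in Pparg-/-epi mice. The groups overlapped over 3 of the 6 Pparg-/-epi mice, and the log2 fold change of 0.58 (SE 0.22, adjusted p = 0.0929 by edgeR) met neither threshold. With RIN, the RNA integrity number, as a covariate it was 0.75 (adjusted p = 0.0118 by edgeR), and 4 of 9 members were then altered and higher, where 5.26% of all genes were. RIN was 7.4, 8.6, 6.1, 7.1, 5.9 and 6.2 in WT replicates 1 to 6. It was 8.6, 8.5, 7.7, 7.7, 5.7 and 7.1 in Pparg-/-epi replicates 7 to 12. With this covariate the log2 fold changes were 0.31 for Klk5, 0.55 for Klk7, 1.14 for Klk9, 1.85 for Klk10 and 0.53 for Klk11. They were 2.88 for Klk6, 1.78 for Klk13 and -0.33 for Spink5. In GENCODE 20.3% of the 75-base stretches of Klk8 also occur, in either orientation, in transcripts of 2310002F09Rik, a gene on the minus strand. Counting by strand was not stated, so reads of either gene there could count for Klk8. In the gene model of the table itself the 2 genes do not overlap. No such stretch was shared by the other members.

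Klk11, a trypsin-like member, was at 96.7, 141 and 203 CPM in the lowest, median and highest WT mouse and at 105, 192 and 262 CPM in Pparg-/-epi mice, with 3 Pparg-/-epi mice above every WT mouse. Its log2 fold change was 0.33 (SE 0.25, adjusted p = 0.412 by edgeR, 95% interval -0.20 to 0.86).

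Spink5, the inhibitor, lies on chromosome 18 from 43963241 to 44022487 of mm10. It was the 1 member with a negative value. Its level was 1820.4, 3087 and 4079 CPM in the lowest, median and highest WT mouse and 1411, 2184 and 3062 CPM in Pparg-/-epi mice. Of the 6 Pparg-/-epi mice 2 were below every WT mouse, and the other 4 lay within the WT range. The log2 fold change was -0.49 (SE 0.23, adjusted p = 0.176 by edgeR, 95% interval -0.99 to 0.01), which did not pass the test.

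To compare genes with each other, CPM was divided by the exon length the table gives, in kilobases (RPKM). Klk7 was the most abundant kallikrein per length in 12 of 12 libraries, and Klk5 the second in 11, the exception being WT replicate 2, where Klk10 took 20.1% of the summed kallikrein level. In WT mice the mean levels ran from Klk7 at 1015 ± 243 RPKM over Spink5 at 641 ± 180.4 and Klk5 at 304 ± 103 to Klk8 at 129 ± 35.8, Klk11 at 103 ± 28.1, Klk10 at 71.9 ± 130.2, Klk9 at 57.7 ± 15.2, Klk6 at 22.0 ± 19.3 and Klk13 at 5.84 ± 4.72 (SD, n = 6). The neighbours Klk8 and Klk11, Klk11 and Klk10, Klk10 and Klk9, and Klk6 and Klk13 differed by less than the larger of their SDs. The place of Klk10 came from WT replicate 2, as its WT median was 15.6 RPKM against 59.6 for Klk9. In Pparg-/-epi mice Klk6 ranked 5 of the 9, at 175 ± 42.8 RPKM, next to Klk8 at 193 ± 55.7 and Klk10 at 167 ± 55.5, and these neighbours differed by less than their SDs. Klk7 made up 59.1 ± 3.52% of the summed kallikrein RPKM in WT and 55.4 ± 2.22% in Pparg-/-epi mice, and Klk6 made up 1.26 ± 1.03% and 7.39 ± 2.54% (SD, n = 6 each).

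The balance of protease to inhibitor was taken as the ratio of counts within each library, which does not depend on the scaling between libraries. For every 100 Spink5 counts there were 46.2 to 67.9 Klk7 counts in WT mice against 97.7 to 123 in Pparg-/-epi mice. The groups did not overlap, with Pparg-/-epi mice above WT mice, as held for 3.29% of all genes set against Spink5 in this way, although neither Klk7 nor Spink5 passed the test on its own. The mean log2 ratio of Klk7 to Spink5 was -0.77 ± 0.21 in WT and 0.15 ± 0.12 in Pparg-/-epi mice (SD, n = 6 each), a difference of 0.92 or 1.90-fold (p = 0.00216 by a two-sided exact permutation test, which is as low as 6 against 6 can go, and 0.00433 adjusted over the 2 ratios tested). WT replicate 2, at 66.1 Klk7 counts per 100 Spink5 counts, was within the range of the other WT mice in this ratio. For Klk5 there were 7.77 to 17.1 counts per 100 Spink5 counts in WT against 14.6 to 21.5 in Pparg-/-epi mice, with 3 Pparg-/-epi mice above every WT mouse. The mean log2 ratio of Klk5 to Spink5 differed by 0.54 or 1.45-fold (two-sided exact permutation test, p = 0.0195, adjusted p = 0.0195). A ratio shows unequal change of its 2 genes and does not say which of them moved.

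The other ratios to Spink5 were computed as a description without a test. All the ratios share the Spink5 counts, whose log2 fold change was -0.49. Klk6, Klk8, Klk9 and Klk13 did not overlap between the groups, read against the 3.29% of all genes, Klk11 was above every WT mouse in 5 Pparg-/-epi mice, and Klk10 was above every WT mouse in 0, because of WT replicate 2. For Klk8, the ratio was 4.34 to 6.79 counts per 100 Spink5 counts in WT against 9.62 to 14.8 in Pparg-/-epi mice. The summed RPKM of the 8 kallikreins was 2.09 to 3.26 times that of Spink5 in WT mice, with a mean of 2.75 ± 0.499, and 4.77 to 6.34 times in Pparg-/-epi mice, with a mean of 5.52 ± 0.602 (SD, n = 6 each).

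**Figure D3:**
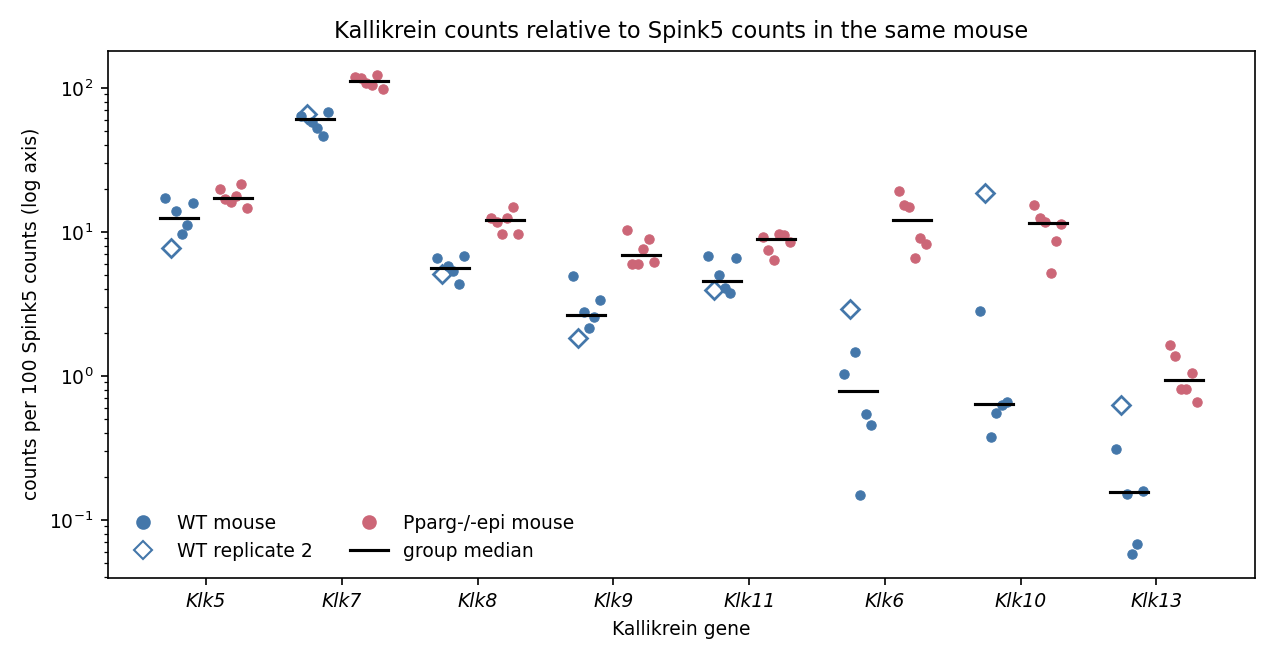
Counts of each kallikrein per 100 Spink5 counts in the same mouse, on a log axis. Points are mice, black bars group medians, and open diamonds WT replicate 2. For Klk7 the WT mice lie between 46.2 and 67.9 and the Pparg-/-epi mice between 97.7 and 123.

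The members did not vary as 1 block from mouse to mouse. After the group means were removed, Klk5, Klk7, Klk8, Klk9, Klk11 and Spink5 varied together over the 12 libraries, with Pearson r of log2 CPM from 0.56 to 0.93 over their 15 pairs. Klk7 was closest to Klk8 (r = 0.93) and Spink5 closest to Klk7 (r = 0.91), so that within a genotype the inhibitor was high where the protease was high. Klk6, Klk10 and Klk13 gave r of 0.54 to 0.77 among themselves and -0.71 to -0.01 with the other 6 members. Without WT replicate 2 the first 15 pairs gave 0.56 to 0.96 over 11 libraries, while the 3 pairs among Klk6, Klk10 and Klk13 gave 0.01 to 0.62 and the pairs between the sets -0.45 to 0.43. The second set therefore rested on that mouse. The sets were chosen after the values were seen, the points share a library and its depth, and the correlations are a description without a test.

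**Figure D4:**
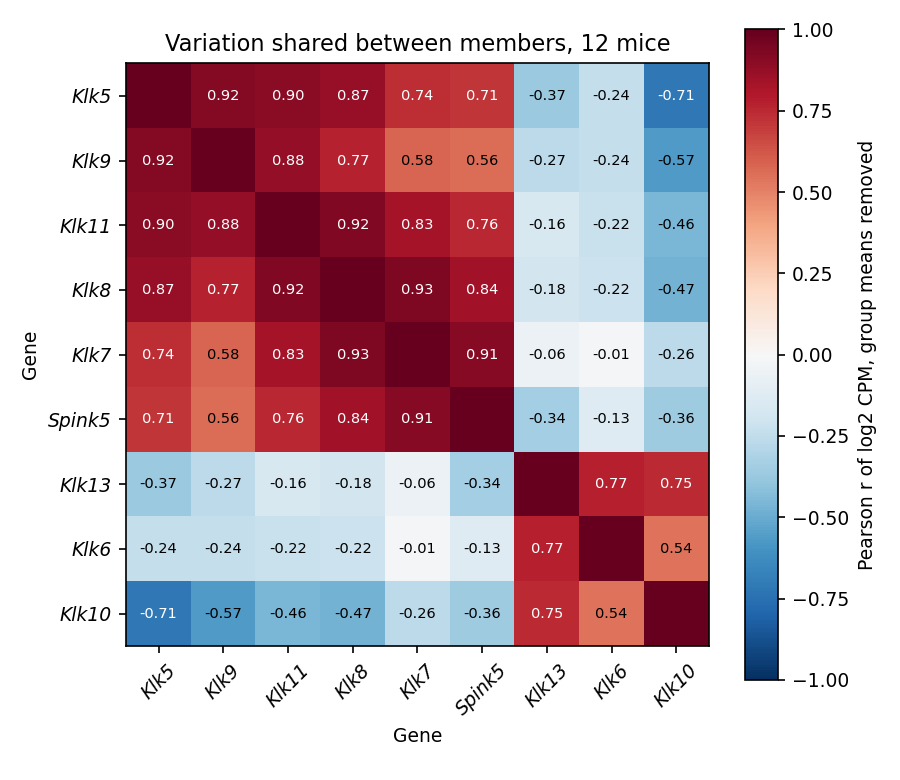
Pearson r of log2 CPM between each pair of members over 12 mice, with the mean of each genotype removed, printed in each cell. Klk5, Klk9, Klk11, Klk8, Klk7 and Spink5 form a block of positive values from 0.56 to 0.93, and Klk13, Klk6 and Klk10 form a second one that depends on WT replicate 2.

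No difference between the sexes in the response of the members was detected. In the interaction of genotype and sex, 0 of 9 members passed an adjusted p of 0.05 with the quasi-likelihood test of edgeR, 0 did at an unadjusted p under 0.05, and 0 with the likelihood ratio test of edgeR. Over all genes 0% passed, and 741 genes did so unadjusted. Klk6 averaged 30.0 CPM in female and 32.2 in male WT mice, and 265 and 209 in female and male Pparg-/-epi mice. The largest interaction of a member was that of Klk10, at a log2 value of 2.61 (SE 1.44, unadjusted p = 0.0974 by edgeR). Klk10 averaged 165 and 29.3 CPM in female and male WT mice, the former with WT replicate 2, and 219.5 and 239.6 in Pparg-/-epi mice. With 3 female and 3 male WT and 4 female and 2 male Pparg-/-epi mice, differences of this size could be missed. With the 7 female mice alone, 3 WT and 4 Pparg-/-epi, 0 of 9 members were altered, where 2.02% of all genes were altered and higher. In that fit 4 members had an unadjusted p under 0.05, as 23.3% of all genes did. The likelihood ratio test called 1 member, Klk6, and 8.82% of all genes, and DESeq2 called 4, Klk6, Klk9, Klk13 and Spink5, and 10.3% of all genes. The log2 fold changes in female mice were 3.15 for Klk6, 0.99 for Klk9 and 1.59 for Klk13, with adjusted p from 0.0685 to 0.162 by edgeR.

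Of the 6 WT mice, 4 shared a breeding number that no Pparg-/-epi mouse carried, so that breeding and genotype could only be parted through the others. Against the remaining 2 WT mice, an alternative chosen after the data were seen, 1 of 9 members was altered and higher, Klk6, and 1.14% of all genes were. The log2 fold changes in that comparison were 2.46 for Klk6, 1.27 for Klk9 and 1.05 for Klk13, the last 2 with adjusted p of 0.127 and 0.157 by edgeR. A single breeding number held 1 mouse of each group, WT replicate 2 and Pparg-/-epi replicate 10. In that pair Klk6 was at 71.4 and 165 CPM, Klk9 at 45.003 and 190.5 CPM, Klk13 at 15.4 and 20.2 CPM and Klk10 at 456 and 131 CPM. Spink5 was at 2444 and 2506 CPM, and there were 66.1 and 105 Klk7 counts per 100 Spink5 counts. Klk10 was thus lower in the Pparg-/-epi mouse of this pair. With the 6 breeding numbers as a block, a fit added after the data were seen in which this pair alone carries the genotype difference and 5 residual degrees of freedom give its error, 1 of 9 members was altered and higher, Klk9, and 0.750% of all genes were. The log2 fold changes in that fit were 2.08 for Klk9 (adjusted p = 0.0282 by edgeR), 1.21 for Klk6 (adjusted p = 0.554), 0.39 for Klk13 (adjusted p = 0.726) and -1.80 for Klk10 (adjusted p = 0.0546).

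Other genes of the shedding cascade were taken from named lists. Of 17 other kallikreins, glandular ones for the most part, Klk12 alone was listed. It was higher in Pparg-/-epi mice (log2 fold change 2.59, SE 0.76, adjusted p = 0.0371 by edgeR), but it had 0 to 32 counts in WT against 26 to 55 in Pparg-/-epi libraries, and it exceeded 0.5 CPM in only 2 WT libraries, so that it entered the table through the group in which it was high. Its call was lost when any 1 mouse other than WT replicate 2 was left out, and also with total counts in place of TMM and in female mice alone, while its log2 fold change stayed between 2.35 and 4.00 in the 12 fits. Of 19 other serine protease inhibitors 10 were listed. The likelihood ratio test of edgeR called 2 of them altered and 1712 of all 14533 genes, and DESeq2 called 3 and 1787 of 14443. The quasi-likelihood test called 1 altered, where 10.3% of all genes were. This was Slpi, an inhibitor of elastase and of Klk7 that is also antimicrobial, at 0.403 to 3.84 CPM in WT and 4.82 to 10.1 CPM in Pparg-/-epi mice (log2 fold change 2.51, SE 0.52, adjusted p = 0.00707 by edgeR). The groups did not overlap, but Slpi had 6 to 36 counts in WT against 58 to 174 in Pparg-/-epi libraries. WT replicates 1 and 4, at 0.447 and 0.403 CPM, were under the 0.5 CPM of the filter. Slpi therefore entered the table only with the help of the group in which it was high. Serpina12, or vaspin, which inhibits Klk7, was at a log2 fold change of -0.75 (adjusted p = 0.0712 by edgeR) and was not called by the quasi-likelihood test, but it was by the likelihood ratio test, by DESeq2, with total counts and without WT replicate 2. Spink12 was at 0 to 6.58 CPM in WT and 0.499 to 5.09 CPM in Pparg-/-epi mice (adjusted p = 0.711 by edgeR). The median log2 fold change of the inhibitors was 0.28.

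The corneodesmosome proteins, the substrates that hold corneocytes together, were listed in 8 of 8 and altered in 0. At an unadjusted p under 0.05 there were 2, and the likelihood ratio test of edgeR and DESeq2 each called 0. Cdsn, which encodes corneodesmosin, averaged 1220.4 ± 243 and 1167 ± 305 CPM, and Dsc1 averaged 1056 ± 222 and 1091 ± 215 CPM in WT and Pparg-/-epi mice (SD, n = 6 each). For Dsg1a the log2 fold change was -0.60 (SE 0.17, adjusted p = 0.0310 by edgeR), just short of the fold threshold, and it was called altered in 6 of the 12 fits that left out 1 mouse, with values from -0.70 to -0.52 over the 12. Dsg1b, its near copy, had 0.57 (SE 0.22, adjusted p = 0.0950 by edgeR). Of their 75-base stretches 29.2% of Dsg1a and 39.7% of Dsg1b occur in other Dsg1 genes. Multi-mapped reads were removed, so reads from such stretches could be missing from the counts of both genes. The median log2 fold change of the 8 genes was 0.02.

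Of 11 other proteases of the cascade 9 were listed and 2 were altered, both higher, where 5.19% of all genes were altered and higher. The likelihood ratio test of edgeR and DESeq2 each called 2, against 1712 of 14533 and 1787 of 14443 genes. Without WT replicate 2, where 2249 of 14533 genes were altered, 4 were. At an adjusted p under 0.05 by edgeR there were 4. Ctsl at a log2 fold change of 0.47 (adjusted p = 0.00351 by edgeR) and Ctsd at 0.59 (adjusted p = 0.0498 by edgeR) were short of the fold threshold. Prss27, a membrane-anchored serine protease, was at 4.84 to 9.50 CPM in WT and 11.5 to 23.0 CPM in Pparg-/-epi mice (log2 fold change 1.35, SE 0.22, adjusted p = 0.00196 by edgeR), without overlap. Asprv1, the retroviral-like aspartic protease that processes filaggrin, was at 1182 to 1592 CPM in WT and 1641 to 2948 CPM in Pparg-/-epi mice (log2 fold change 0.85, SE 0.15, adjusted p = 0.00298 by edgeR), also without overlap. The membrane proteases upstream of the kallikreins were not altered: St14, or matriptase, was at a log2 fold change of 0.07 (adjusted p = 0.696 by edgeR), and Prss8, or prostasin, 0.25 (adjusted p = 0.246 by edgeR). The median of the 9 was 0.47.

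Of 5 substrates and receptors, 3 were listed and 0 were altered, with 1 at an unadjusted p under 0.05 and 0 by the likelihood ratio test or DESeq2. F2rl1, which encodes the receptor PAR2, was at 84.2 to 106 CPM in WT and 84.6 to 153 CPM in Pparg-/-epi mice (log2 fold change 0.16, SE 0.14, adjusted p = 0.513 by edgeR).

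Of the 10 listed genes of the cluster 5 were altered, where 10.3% of all genes were. Of the altered genes Klk13, 2310002F09Rik and Klk12 are consecutive, while Klk9 and Klk6 are separated from them and from each other. Among them Klk12 entered the table through the group in which it was high. The call of Klk12 was lost when any 1 mouse other than WT replicate 2 was left out. In chromosome order the log2 fold changes were 1.83 for Klk13, -1.41 for 2310002F09Rik, 2.59 for Klk12, 0.33 for Klk11, 1.21 for Klk10, 0.92 for Klk9, 0.58 for Klk8, 0.44 for Klk7, 2.99 for Klk6 and 0.02 for Klk5. Klk6, from 43824544 to 43832027, and Klk5, from 43842269 to 43851181, are next to each other and stood at the ends of that range for the kallikreins. 2310002F09Rik, a noncoding gene on the minus strand between Klk13 and Klk12, was the 1 altered gene of the cluster that was lower (SE 0.39, adjusted p = 0.0304 by edgeR), at 3.64 to 12.0 CPM in WT and 1.46 to 4.57 CPM in Pparg-/-epi mice, with overlap. Of the 10 nearest listed genes, 5 on each side, 0 were altered, with 1 at an unadjusted p under 0.05 and 0 by the likelihood ratio test or DESeq2. Without WT replicate 2, where 2249 of 14533 genes were altered, 1 of these 10 was. Before the cluster these were Cd33, Zfp658, Zfp719, Siglece and Ctu1, with log2 fold changes from -0.29 to 0.49. After it they were 2410002F23Rik, Clec11a, Shank1, Syt3 and Josd2, from -0.66 to 0.11.

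**Figure D5:**
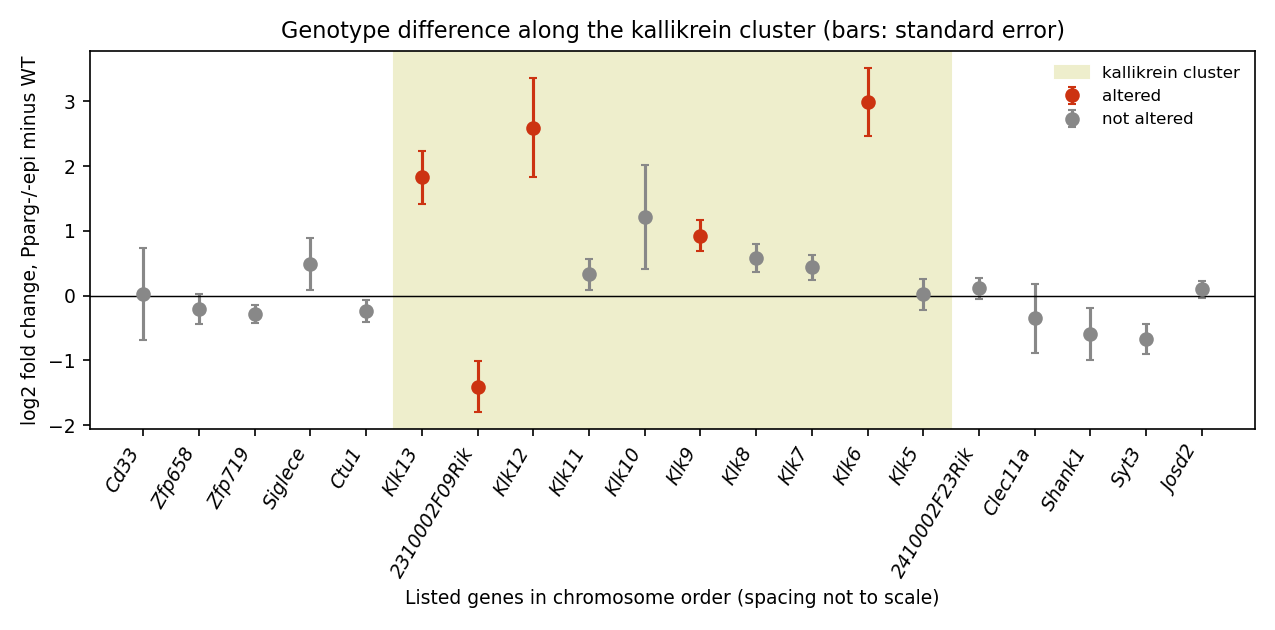
Log2 fold change between Pparg-/-epi and WT mice for the listed genes of the kallikrein cluster (shaded) and the 5 listed genes on each side, in chromosome order with spacing not to scale. Bars are 1 standard error. Of the genes drawn, those altered are all within the shaded cluster, and the values there run from -1.41 for 2310002F09Rik to 2.99 for Klk6. Klk12, which is among those altered, entered the table through the group in which it was high.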

How the data were processed

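RNA from scraped dorsal epidermis of 12 mice was sequenced as poly(A) libraries. Per the labels and the study's methods, the authors aligned reads to mm10 with STAR 2.5.2b, removed multi-mapped reads, and deposited whole-number counts per gene made with featureCounts of Subread 1.5.1, without normalization. Of the rows, 2800 were blank and dropped, and 14533 genes remained. The columns of WT and Pparg-/-epi mice were assigned through the labels, and those of Pparg-/-epi replicates 11 and 12 through the study's run sheet. Breeding numbers were read from the mouse names of the columns.

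Counts were scaled by TMM and compared with edgeR 4.0.16 in R 4.3.3 (quasi-likelihood, genotype as the only term). DESeq2 1.42.0, other scalings, filters and covariates were alternatives. Correlations used log2 CPM with a prior count of 2, and ratios added 0.5 counts to both genes. Intervals are from the fitted standard error. The script was tested on simulated counts. P-values measure the spread between these mice and, except in the block on breeding number, treat them as independent, although 4 WT mice shared a breeding number. Among the Pparg-/-epi mice, 4 also shared breeding numbers, as 2 pairs. The ratio tests were not repeated by breeding number.

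The members and gene lists were chosen with earlier results of these data known. The genes named are all members, Pparg, altered genes of the lists with 9 others of the cascade, 5 genes on each side of the cluster, and the 3 genes most like each member.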

Additional observations from a re-analysis of the deposited data

Results flagged for a closer look

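Among 32 named genes, the 64 groups of 6 mice were searched for a mouse whose gap to the nearest other exceeded Dixon's 95% limit as a share of the group's range, which chance does in about 1 of 20 groups. It was exceeded in 6 groups. In 5 of them the mouse was WT replicate 2 as the highest WT mouse, with 456 CPM of Klk10, 15.4 CPM of Klk13, 1.70 CPM of Klk12, 6.58 CPM of Spink12 and 10.03 CPM of Cd33. In the remaining group Pparg-/-epi replicate 12 was the highest, with 5.93 CPM of Zfp658.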

How the results depend on the processing

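Klk6, Klk9 and Klk13 were the altered members with total counts or RLE factors in place of TMM, with the likelihood ratio test, with DESeq2, with either filter on low counts, and with sex or age as a covariate. Over all genes these fits called from 1201 of 12389, with 10 counts in every library, to 1787 of 14443, with DESeq2. With RIN as a covariate Klk8 joined these 3 members, and 1411 of 14533 genes were called. Leaving out each mouse in turn left 1116 to 2249 of 14533 genes altered, the most without WT replicate 2. Among the members 3 to 4 were altered, the fourth being Klk10 without that mouse. With female mice only 0 were altered, and without the 4 WT mice of 1 breeding number, an alternative added after the data were seen, 1 was. In that comparison the log2 fold change of Klk10 was -0.15 and that of Spink5 was 0.044, both of the opposite sign to those with all mice, and Klk9 and Klk13 kept their direction without being called. With breeding number as a block, also added after the data were seen, 1 member was altered, and the log2 fold changes of Klk10 and Spink5 were -1.80 and 0.036. Klk5 changed sign in 5 of the 12 fits that left out 1 mouse, within -0.13 to 0.18. The difference in the Klk7 to Spink5 ratio was 0.86 to 0.97 and that in the Klk5 to Spink5 ratio 0.41 to 0.64 when 1 mouse was left out, each with an exact p under 0.05 in 12 of 12 fits. In the lists of other cascade genes 4 were altered, where 10.3% of all genes were. There were 2 among genes with 10 counts in every library, a filter that removes Klk12 and Slpi. With that filter 1201 of 12389 genes were altered. Without 1 mouse there were 3 to 9, the 9 without WT replicate 2, where 2249 of 14533 genes were altered. The paper describes the WT mice as sibling controls. Only 1 breeding number occurs in both groups, and it is covered by the block on breeding number. No other pairing of mice was made. The causes of these differences were not tested.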

Other observations

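For each member, the 3 other genes with the most similar profile of log2 CPM over the 12 libraries were listed by Pearson r, as a description in which all points share a library, its depth and the genotype. Klk6 was most like Slpi (r = 0.97), 1110008P14Rik (0.96) and Proser2 (0.96), and with the group means removed these gave 0.87, 0.83 and 0.82. Klk13 was most like Dnase1l2 (0.97), Slc39a2 (0.96) and Slc31a1 (0.96). Klk9 was most like Lce1h (0.98), a late cornified envelope gene, Ggct (0.97) and Calm4 (0.97), a calmodulin-like gene, and with the group means removed these gave 0.97, 0.94 and 0.93. Klk10 was most like Sprr4 (0.98), a small proline-rich gene, Elovl7 (0.98) and Tmprss11e (0.98), a membrane serine protease. With the group means removed these gave 0.96, 0.96 and 0.95. All of these Klk10 values include WT replicate 2, the highest of the 12 mice in Klk10, and how far they rest on it was not tested.

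Klk5 was most like Htatip2 (0.98), Ap1m2 (0.96) and Stap2 (0.96). Klk7 was most like Eif4a1 (0.95), 1500015A07Rik (0.95) and Mal2 (0.94). Klk8 was most like Nipal1 (0.95), Sdcbp2 (0.95) and Il1a (0.94), the gene of interleukin 1 alpha. Klk11 was most like Anxa9 (0.95), Vcpkmt (0.95) and Dexi (0.95). Spink5 was most like Siah1a (0.99), Sh3d21 (0.97) and Ptgr1 (0.97).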
